A study of Mus musculus with 15 samples.

Results

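A set of 48 genes whose products act in the G2 phase and in mitosis was followed through 15 RNA-seq libraries of mouse embryonic fibroblasts. Members were found by gene symbol: every transcription unit of the deposited table that carried a member's symbol was taken, which gave 81 of the 65522 units in the table, of which 38585 were above 0 in some sample. All 48 symbols were found. For the 29 members with more than 1 unit, the unit with the highest mean level stood for the gene, and the 33 second units are described separately. Levels are in FPKM, a fragment count divided by transcript length and by library size, so they are scaled for length and for library size.

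Genes of this kind are silent or low in resting and G1 cells and are transcribed late in the cell cycle, so their mRNA level in a population follows how many of its cells are in G2 or mitosis. Their promoters commonly hold the cell cycle genes homology region (CHR, with the letters TTTGAA or TTCGAA), which is bound by the DREAM complex when genes are held down and by the MuvB core with B-MYB and FOXM1 when they are switched on, together with CCAAT boxes bound by NF-Y. The products build the CDK1 and cyclin B engine that starts mitosis, the spindle and kinetochores that move chromosomes, the checkpoint that delays anaphase, the ubiquitin pathway that ends mitosis, and the condensin and cytokinesis machinery.

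Proximal promoters of members at the extremes of the results are shown here because the members moved together. They are RefSeq sequences of mouse build GRCm38.p6, from 120 bases before to 30 bases after the start site, written 5′ to 3′ on the strand of the gene, with each CHR or CCAAT match in capitals. Nuf2 lies at chr1:169531435-169531584 on the minus strand and Ncapg at chr5:45669805-45669954 on the plus strand, and both rose on culture adaptation of WT cells. Ccnb1 lies at chr13:100786457-100786606 (minus), Plk1 at chr7:122159315-122159464 (plus), Cdc20 at chr4:118437314-118437463 (minus) and Birc5 at chr11:117849117-117849266 (plus), 4 members that were far lower in some adapted CIZ1 null lines. Pttg1 lies at chr11:43425952-43426101 (minus) and is shown because it was not lower there, a choice made after its values were seen.
Nuf2 promoter: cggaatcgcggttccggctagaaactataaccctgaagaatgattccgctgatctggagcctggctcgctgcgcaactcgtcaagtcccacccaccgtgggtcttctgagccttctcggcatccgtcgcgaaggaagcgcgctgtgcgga
Ncapg promoter: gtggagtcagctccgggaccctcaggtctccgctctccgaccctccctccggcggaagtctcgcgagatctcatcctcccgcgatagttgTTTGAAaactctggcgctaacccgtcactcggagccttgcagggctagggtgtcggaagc
Ccnb1 promoter: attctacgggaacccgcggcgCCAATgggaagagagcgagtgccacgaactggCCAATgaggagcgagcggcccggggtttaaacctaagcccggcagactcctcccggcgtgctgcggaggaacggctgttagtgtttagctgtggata
Plk1 promoter: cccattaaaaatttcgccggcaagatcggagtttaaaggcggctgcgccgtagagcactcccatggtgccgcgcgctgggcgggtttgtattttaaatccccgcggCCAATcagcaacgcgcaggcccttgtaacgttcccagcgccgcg
Cdc20 promoter: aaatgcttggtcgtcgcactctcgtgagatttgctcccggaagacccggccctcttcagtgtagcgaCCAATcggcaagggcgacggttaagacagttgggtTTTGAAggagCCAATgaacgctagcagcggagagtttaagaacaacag
Birc5 promoter: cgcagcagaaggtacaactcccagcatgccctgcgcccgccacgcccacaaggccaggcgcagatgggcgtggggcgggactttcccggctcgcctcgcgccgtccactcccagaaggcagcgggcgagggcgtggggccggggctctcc
Pttg1 promoter: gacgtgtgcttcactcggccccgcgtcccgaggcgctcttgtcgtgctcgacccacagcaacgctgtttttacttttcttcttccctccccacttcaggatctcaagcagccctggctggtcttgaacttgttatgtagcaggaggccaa

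Promoter windows of 300 bases (250 before to 50 after the start site) were given for 40 of the 48 members, as 42 windows, and 5 motifs were searched on both strands. The CHR letters TTTGAA were found in 28 of the 40 genes (70%), against 17.9% of all 32851 promoters of the same length. The variant TTCGAA was in 4 genes (10%), against 1.56% of all promoters. CCAAT was in 31 genes (77.5%), against 37.4%. The share with each of these letters was thus higher among members than among all promoters. A CCAAT together with TTTGAA or TTCGAA was in 27 of the 40 genes, against 7.52% of all promoters, and the E2F-type letters TTTCGCGC and TTTGGCGC were in 1 gene each (2.5%), against 0.323% and 0.514%. In the stretches above, Cdc20 has TTTGAA starting at position -18 from the start site between CCAAT boxes at -53 and -8, Ncapg has TTTGAA at -30, and Ccnb1 has CCAAT at -99 and -67. The CCAAT of Plk1 starts at -14, and its TTTGAA starts at 31 bases past the start site, just outside the stretch shown. None of the 5 motifs was in the windows of Birc5, Mad2l1, Mybl2, Ncaph, Nuf2 and Pttg1, which says only that these letters are not in these windows. These matches are descriptions of sequence and were not related to the measured changes by any test.

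The libraries were made from poly(A) RNA of female C57BL/6 cells grown to 80% confluence. Primary embryonic fibroblasts, taken before passage 5, came from individual embryos, and culture-adapted lines were derived from the same populations by continued culture. The groups were 3 primary WT (CIZ1 +/+) populations from embryos E14.4, E13.1 and E13.8, 2 primary CIZ1 -/- populations (E14.2 and E13.15), 2 untreated primary CIZ1 -/- populations with an inducible CIZ1 transgene (E13.17 and a population numbered S13), 2 such populations given doxycycline at 5 to 10 µg/ml (S14 and S15), 3 adapted WT lines and 3 adapted CIZ1 -/- lines (E13.15, E13.17 and E14.2). CIZ1 null cells carry a neomycin gene trap in Ciz1, and the transgene codes for GFP-tagged CIZ1. Its label gives the adapted E13.17 line as CIZ1 -/- with no word of the transgene that its primary population carries. The primary CIZ1 null trio used in tests was E13.15, E13.17 without doxycycline, and E14.2. Each line is 1 embryo's cells, and an adapted line is 1 derivation.

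Ciz1 itself checked the labels, at 18.7 to 25.0 FPKM in the 6 WT samples, 0.0546 to 0.724 FPKM in the CIZ1 null samples without doxycycline and 191 to 296 FPKM with it. Sequencing depth relative to primary WT E14.4, read from the steps between low values, ranged from 0.48 to 1.62. It was 0.893 in adapted CIZ1 null E13.15, 0.847 in E13.17 and 0.538 in E14.2. The summed level of 10 fibroblast markers was 8280 to 11003 FPKM in primary and 2569 to 6678 FPKM in adapted cells. Not every one was present in each adapted line: Thy1 was at 0 in adapted WT E13.8, and Lum was at 0 in adapted WT E13.1 and E14.4 and in adapted CIZ1 null E13.17. Col1a1 ranged from 139 to 3186 FPKM. The summed level of epithelial markers was at most 12.7 FPKM, of endothelial markers at most 2.7, of muscle markers at most 13.5 and of neural markers at most 22.9, while Epcam, Cdh1, Myod1 and Myog were at or near 0. Macrophage and blood markers summed to 2.15 to 87.2 FPKM and erythroid markers to 2.58 to 43.2 FPKM, both lower in adapted than in most primary samples. The part of these cells in the results was not tested.

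Adapted CIZ1 null lines E13.17 and E14.2 stood apart from all other samples for most members. The members' summed level was 838 to 1313 FPKM in primary WT, 1020 to 1319 FPKM in the primary CIZ1 null trio and 1662 to 2051 FPKM in adapted WT. It was 1551 FPKM in adapted CIZ1 null E13.15, but 166 FPKM in E13.17 and 348 FPKM in E14.2. Both lines lay below all 13 other samples for 45 of the 48 members, the exceptions being Cdc25b, Mybl2 and Pttg1. E13.17 had 20 members under 1 FPKM and E14.2 had 3, while no other sample had any. The lines were singled out after their values were seen. Ranks of samples and counts under 1 FPKM, here and below, were taken for the members only, with no share over all units. The members' counts and medians in adapted CIZ1 null cells are therefore also given without these lines. Calls among all units were not counted in the fits without them. In bulk samples, fewer cells in G2 and mitosis and less of these mRNAs per cell cannot be told apart.

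**Figure D1:**
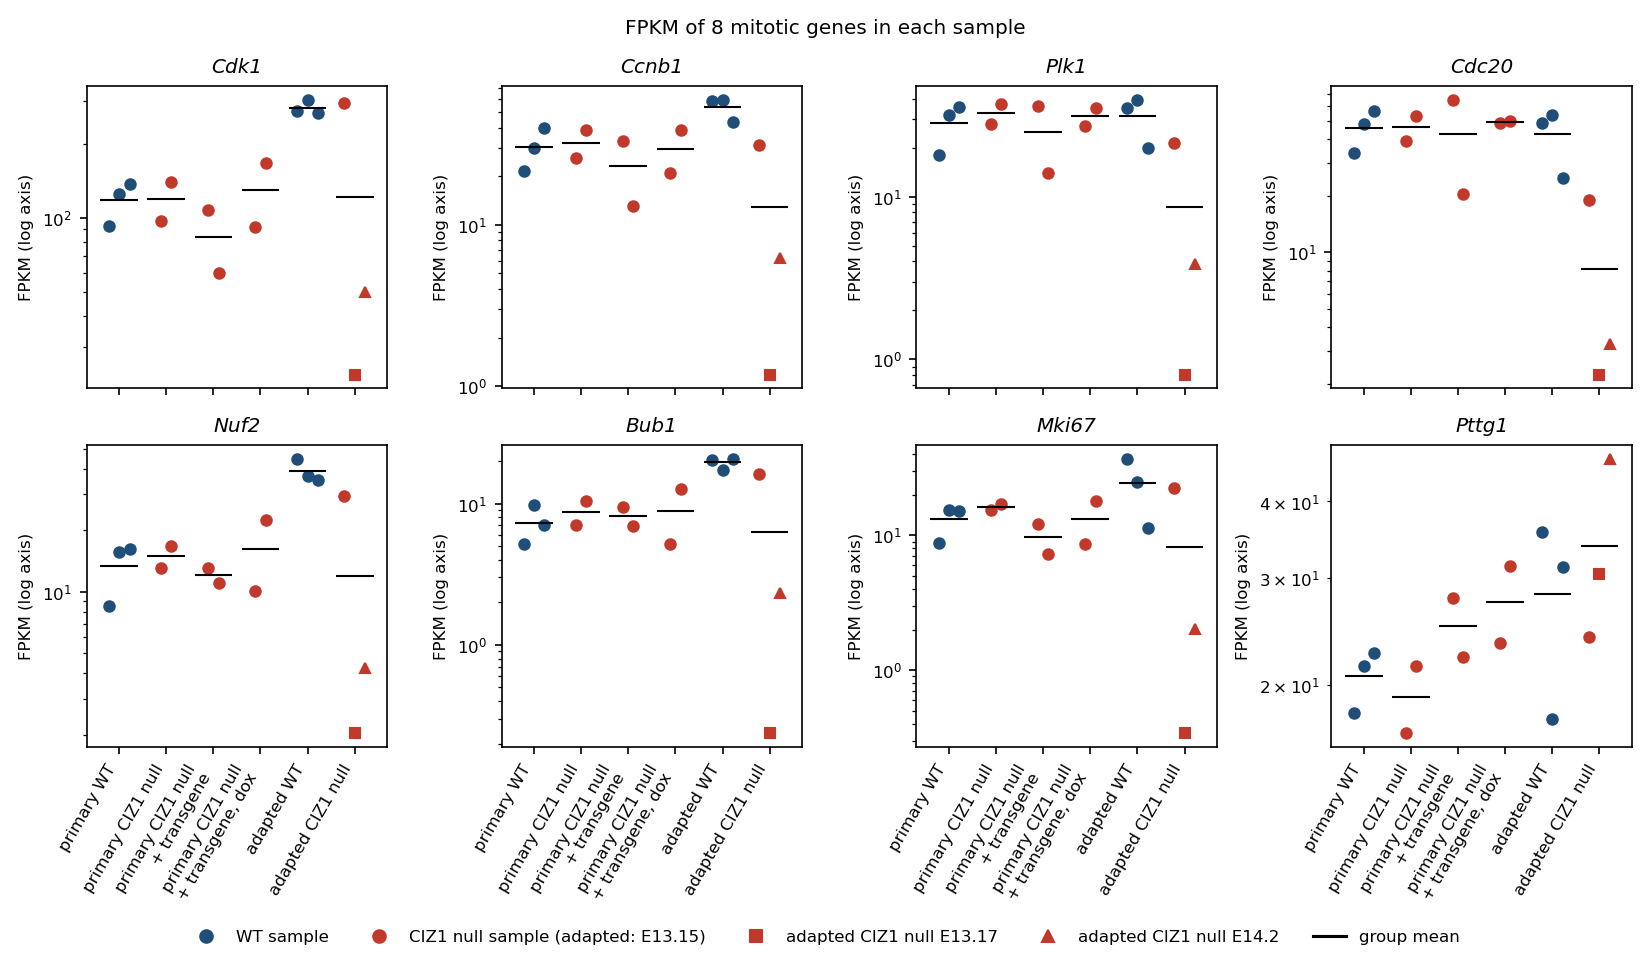
FPKM (log axis) of selected members in every sample, grouped by genotype and culture state, with points as single samples and lines as group means. The points of adapted CIZ1 null E13.17 and E14.2 lie well below the other samples for Cdk1 (23.1 and 49.9 FPKM) but not for Pttg1 (30.5 and 47.0 FPKM).

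**Figure D2:**
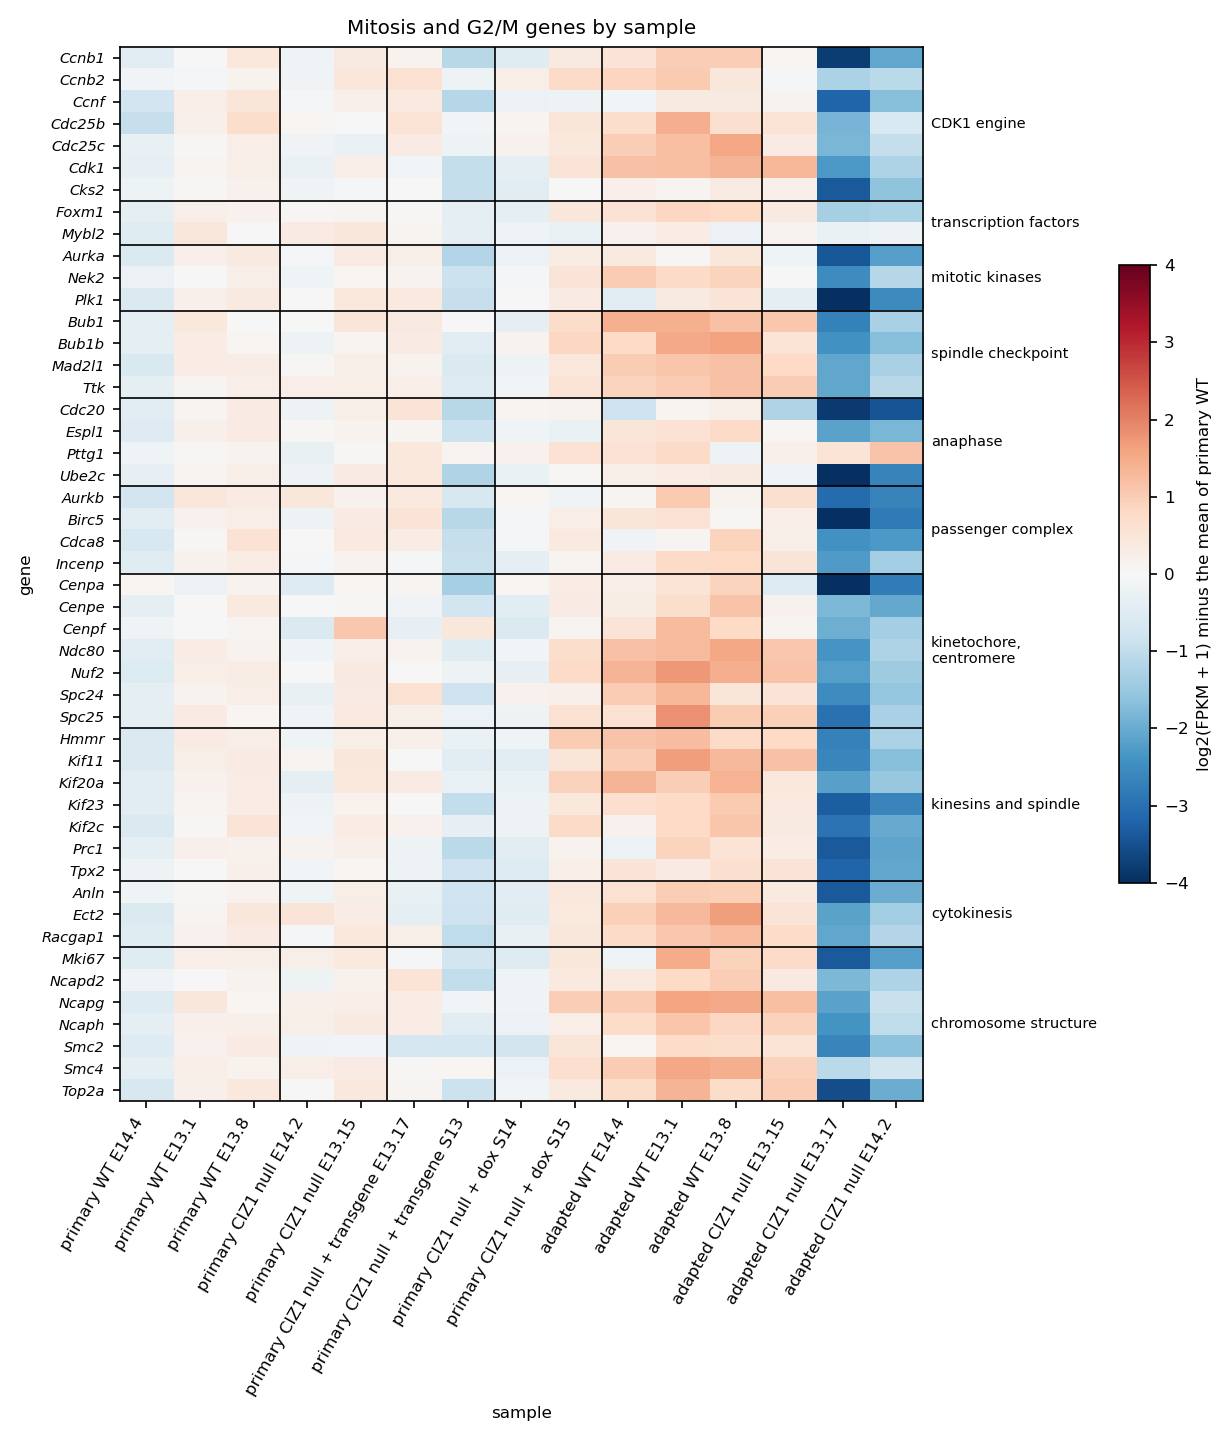
Difference in log2(FPKM + 1) of each of the 48 members (rows, by role) from its mean in primary WT, in each of the 15 samples (columns), on a colour scale. Adapted WT and adapted CIZ1 null E13.15 are mostly above 0, with median differences of 0.60 to 0.99 and of 0.41, while E13.17 and E14.2 have medians of -2.47 and -1.53.

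Culture adaptation of WT cells was compared first, in 3 adapted against 3 primary populations. Of the 48 members, 13 rose and 0 fell at an adjusted p of 0.05 (limma on log2(FPKM + 1), Benjamini-Hochberg over 19919 units), against 2.87% of all units called higher and 6.68% called lower. The median log2 change of the members was 0.83, beside -0.05 over all units tested. The sign was positive for 47 of 48, with Cdc20 at -0.16. The adapted group lay wholly above the primary group for 32 members, where 17.3% of all units did so, and 30 members had an unadjusted p under 0.05, as did 30.6% of all units in either direction. Depth of the 3 lines before and after adaptation differed in both directions, being higher in adapted than primary cells for E14.4 and lower for E13.1 and E13.8.

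This count depends on the primary libraries. It was 0 without any 1 of the 3 primary WT samples (E14.4, E13.1 or E13.8), 8 without adapted WT E13.1 and 3 without adapted WT E13.8, although the median change stayed between 0.63 and 0.94. With the embryo as a block, 6 members were called: Bub1b, Cdc25c, Cdk1, Ect2, Ncapg and Smc4. With all 4 groups in a single fit, 0 were called, with 6 unadjusted p-values under 0.05. Primary WT E14.4 was the lowest of the 3 primary WT populations for 47 members.

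In what follows, values are given in the order E14.4, E13.1, E13.8 for WT and E13.15, E13.17, E14.2 for CIZ1 null. Log2 changes carry the standard error of the fit.

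The CDK1 engine group holds the kinase that drives entry into mitosis, its B-type cyclins and the phosphatases that switch it on. Cks2 and Ccnf were also placed in this group. Of its 7 members, Cdk1 and Cdc25c rose in adapted WT cells. Cdk1 (10:69336635-69352942), the kinase itself and the member with the highest mean level, was at 93.2, 126 and 138 FPKM in primary WT and 268, 275 and 304 FPKM in adapted WT. These groups were far apart, with a log2 change of 1.26 ± 0.19 and an adjusted p of 0.0193 from limma, the lowest among the members, and it was called under 8 of 12 alternative settings. Cdc25c, which removes the inhibitory phosphates from CDK1, was at 1.88, 2.66 and 3.27 FPKM before and 6.08, 7.15 and 9.38 FPKM after adaptation, a log2 change of 1.24 ± 0.235 (limma adjusted p = 0.0303). Ccnb1, the cyclin B1 partner of CDK1, had a log2 change of 0.83 ± 0.265 that missed the threshold (limma adjusted p = 0.0946), although its adapted levels of 43.1, 58.9 and 59.5 FPKM were all above its primary levels of 21.5, 30.0 and 39.9 FPKM. The changes of Ccnb2, Ccnf, Cdc25b and Cks2 were 0.20 to 0.93 and did not pass.

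The spindle checkpoint, which holds back anaphase until chromosomes are attached, had the largest share of calls, with 3 of 4 members. Bub1, a checkpoint kinase at kinetochores, was at 5.15, 9.8 and 7.03 FPKM in primary WT and 20.8, 20.5 and 17.4 FPKM in adapted WT (log2 change 1.34 ± 0.241, limma adjusted p = 0.0269). Bub1b, which codes for BUBR1 of the checkpoint complex, was at 8.07, 13.2 and 11.4 FPKM and then 19.3, 32.6 and 34.5 FPKM (1.31 ± 0.287, limma adjusted p = 0.0418). Ttk, the checkpoint kinase MPS1, was at 3.33, 5.11 and 5.72 FPKM and then 9.47, 10.3 and 11.6 FPKM (1.02 ± 0.218, limma adjusted p = 0.0391). None of these 3 genes had overlapping groups. Mad2l1, the MAD2 protein that binds CDC20, was at 11.4, 22.6 and 22.6 FPKM and then 37.2, 40.2 and 42.1 FPKM, also without overlap, but its limma adjusted p of 0.0586 missed the threshold.

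Among 7 kinetochore and centromere genes, both large subunits of the NDC80 complex, which binds microtubules, rose. Nuf2 had the largest change of any member, from 8.49, 15.6 and 16.2 FPKM to 35.1, 44.9 and 37.0 FPKM (log2 change 1.51 ± 0.271, limma adjusted p = 0.0268). Ndc80 went from 6.44, 11.5 and 10.2 FPKM to 21.7, 23.4 and 28.8 FPKM (1.33 ± 0.246, limma adjusted p = 0.0286). The other two subunits, Spc24 and Spc25, had changes of 0.95 and 1.14 and limma adjusted p-values of 0.0849 and 0.0872. Cenpa, the histone H3 variant of centromeres, was the most abundant of the group, at 55.9, 45.1 and 58.9 FPKM in primary WT and 63.5, 77.6 and 99.1 FPKM in adapted WT. Its change of 0.56 did not pass the test.

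Of 7 kinesins and spindle proteins, the motors Kif11 and Kif20a rose. Kif11, the motor that pushes spindle poles apart, was at 5.5, 10.3 and 11.2 FPKM and then 17.9, 29.9 and 22.8 FPKM (log2 change 1.32 ± 0.31, limma adjusted p = 0.048). Kif20a, a motor of the central spindle, was at 18.5, 28.8 and 31.4 FPKM and then 67.6, 51.9 and 68.7 FPKM (1.25 ± 0.246, limma adjusted p = 0.033). Adapted levels of both genes exceeded every primary level. Prc1, which bundles antiparallel microtubules and had the highest mean of the group, was at 30.8, 46.3 and 45.9 FPKM and then 34.2, 74.8 and 59.6 FPKM, so that its groups overlapped (0.40 ± 0.327).

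Chromosome structure genes included the condensin subunits, and 2 of 7 rose. Smc4, the core ATPase partner of SMC2 in condensin, was at 20.9, 33.6 and 30.8 FPKM and then 58.0, 82.7 and 78.7 FPKM (log2 change 1.34 ± 0.243, limma adjusted p = 0.0273). Ncapg, a condensin I subunit, was at 4.28, 9.22 and 6.87 FPKM and then 14.3, 21.5 and 20.4 FPKM (1.37 ± 0.293, limma adjusted p = 0.0394). The other condensin genes had smaller changes of 0.50 (Smc2), 0.72 (Ncapd2) and 0.89 (Ncaph) and did not pass. Top2a, the topoisomerase that untangles sister chromatids, was at 24.7, 45.4 and 52.2 FPKM and then 65.0, 102 and 64.7 FPKM (0.94 ± 0.331, limma adjusted p = 0.115). Mki67, the proliferation marker Ki-67, had overlapping groups, from 8.78 to 15.4 FPKM before and 11.3 to 37.1 FPKM after adaptation.

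Cytokinesis genes gave 1 call of 3. Anln, the actin-binding anillin of the contractile ring, was at 19.1, 22.6 and 24.2 FPKM and then 34.1, 44.2 and 42.9 FPKM (log2 change 0.85 ± 0.182, limma adjusted p = 0.0401). Ect2, the exchange factor that activates RhoA at the cleavage site, was just outside the threshold, from 6.72, 11.4 and 14.5 FPKM to 21.4, 27.1 and 35.0 FPKM (1.31 ± 0.313, limma adjusted p = 0.0502). Racgap1, its centralspindlin partner, was at 16.5, 26.3 and 29.5 FPKM and then 40.9, 50.9 and 56.5 FPKM (1.03 ± 0.258, limma adjusted p = 0.0555). All 3 genes had adapted levels above every primary level.

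Mitotic kinases gave 1 call of 3. Nek2, a centrosome kinase, rose from 5.3, 6.5 and 7.84 FPKM to 14.2, 11.8 and 12.8 FPKM (log2 change 0.89 ± 0.19, limma adjusted p = 0.0388). Plk1, the polo-like kinase of mitotic entry and exit, was at 18.1, 31.8 and 35.4 FPKM and then 19.9, 35.1 and 39.4 FPKM, and Aurka had a change of 0.28. Plk1 and Aurka thus overlapped between the groups.

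The chromosomal passenger complex, the anaphase genes and the transcription factors gave 0 calls of 4, 4 and 2. Their median changes were 0.39, 0.34 and 0.41. Birc5, which codes for survivin of the passenger complex, was at 37.6, 58.0 and 61.6 FPKM and then 72.2, 76.4 and 52.7 FPKM. Incenp, its scaffold, was at 12.5, 20.5 and 22.3 FPKM and then 22.5, 31.3 and 31.9 FPKM. Both had adjusted p-values above 0.05 by limma (0.371 and 0.171). Ube2c, the ubiquitin-conjugating enzyme of the anaphase-promoting complex, was at 67.5, 90.5 and 98.5 FPKM and then 100.4, 104 and 109 FPKM, without overlap but with a change of only 0.30 ± 0.186. Espl1, the separase that cuts cohesin, was at 2.46, 4.67 and 5.16 FPKM and then 5.95, 6.31 and 7.33 FPKM (0.60 ± 0.259). Cdc20, the activator of the anaphase-promoting complex, was at 33.7, 48.5 and 56.5 FPKM and then 24.8, 49.1 and 53.8 FPKM. Among the transcription factors, Mybl2 (B-MYB) was at 15.3, 30.5 and 22.1 FPKM and then 24.9, 27.1 and 18.3 FPKM, and Foxm1 had a change of 0.73 ± 0.221 (limma adjusted p = 0.0833). Mybl2 and Foxm1 share their units with other symbols, so their levels are uncertain.

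**Figure D3:**
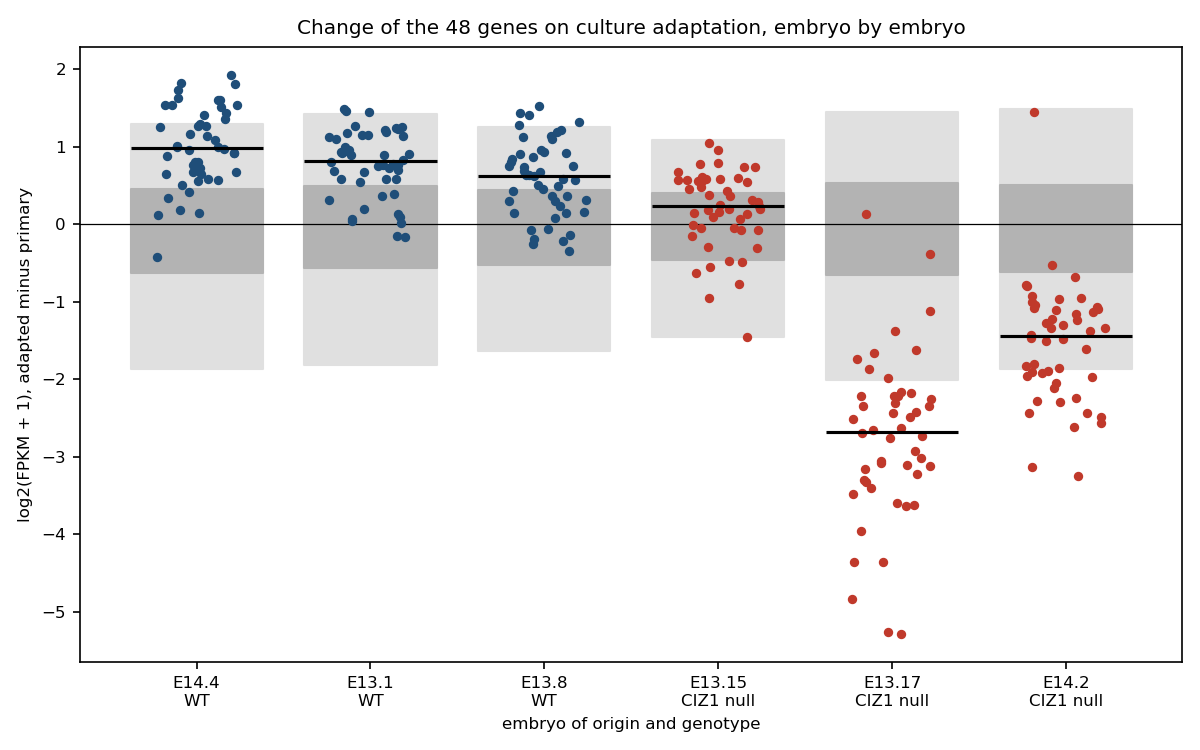
Difference of log2(FPKM + 1) between adapted and primary cells of each of 6 embryos, with the 48 members as points, their median as a line, and grey bands for all units (dark for percentiles 25 to 75, light for 5 to 95). The members' medians were 0.98, 0.82 and 0.62 in the 3 WT lines, 0.24 in CIZ1 null E13.15, -2.68 in E13.17 and -1.45 in E14.2.

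Each adapted line was set against the primary cells of its own embryo, with 1 library on each side and so no test. In WT, adapted FPKM were over 2-fold above primary for 25 members in E14.4, 18 in E13.1 and 12 in E13.8, where 13.3%, 15.6% and 12.9% of all units with a mean of at least 1 FPKM were. No member was over 2-fold lower in a WT line, against 19%, 16.7% and 15.2% of all units. The members' median ratio of adapted to primary was 2.04 in E14.4, 1.81 in E13.1 and 1.59 in E13.8, while the median over all units was 0.954 to 0.994 in the 6 embryos.

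CIZ1 null lines went in different directions. In E13.15, Cdk1 and Ncapg were over 2-fold higher and Cdc20 and Cenpf over 2-fold lower (10.4% and 13.3% of all units), with a median ratio of 1.19. In E13.17, 46 of 48 members were over 2-fold lower, against 19.9% of all units, and 33 were over 8-fold lower, against 5.08%. The median was 12.8-fold lower, and only Mybl2 and Pttg1 were not over 2-fold lower. In E14.2, 43 members were over 2-fold lower, against 18.8% of all units, with a median 3.21-fold lower. Its exceptions were Ccnb2, Cdc25b, Cdk1, Mybl2 and Pttg1, and Pttg1 was over 2-fold higher (15.7% of all units). E13.17 had 0 members over 2-fold higher, against 16.7% of all units. The primary E13.17 cells carried the uninduced transgene and E14.2 cells carried none. The part of the transgene in these changes was not tested.

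By role, the lower levels in E13.17 and E14.2 reached every group. In the CDK1 engine, Cdk1 was at 141, 108 and 97.5 FPKM in the primary trio and 294, 23.1 and 49.9 FPKM in the adapted lines, which is 4.68-fold lower in E13.17 and 1.96-fold lower in E14.2. Ccnb1 was at 38.5, 32.9 and 25.9 FPKM and then 31.0, 1.18 and 6.24 FPKM, which is 27.8-fold and 4.16-fold lower. Cdc25c was listed at 0 in adapted E13.17 and at 0.853 FPKM in E14.2, against 3.46 FPKM in E13.15, and no fold is given against 0. Adapted E13.15 had the highest level of the 3 lines in each of these genes.

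Kinases and the passenger complex were among the genes with the largest differences. Plk1 was at 37.2, 36.0 and 27.9 FPKM in the primary trio and 21.3, 0.806 and 3.88 FPKM in the adapted lines, 44.6-fold lower in E13.17 and 7.19-fold in E14.2. Nek2 was at 6.94, 7.3 and 5.68 FPKM and then 6.52, 0.314 and 2.42 FPKM. Birc5 was at 65.0, 74.5 and 44.6 FPKM and then 61.8, 0.966 and 6.42 FPKM, 77.1-fold and 6.95-fold lower. In E13.15 all 3 genes were less than 2-fold below their primary level. Incenp was at 19.7, 17.5 and 17.2 FPKM and then 26.0, 2.97 and 6.21 FPKM, a smaller ratio than that of Birc5 in both lines.

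Checkpoint genes were likewise low. Bub1 was at 10.4, 9.41 and 7.0 FPKM in the primary trio and 16.2, 0.236 and 2.32 FPKM in the adapted lines, 39.8-fold and 3.01-fold lower in E13.17 and E14.2. Mad2l1 was at 21.2, 19.8 and 18.5 FPKM and then 32.2, 3.49 and 6.74 FPKM, 5.67-fold and 2.75-fold lower. Both genes were higher in E13.15 after adaptation than before, as Bub1b and Ttk were.

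Kinetochore and centromere genes held the member with the largest ratio. Cenpa was at 56.2, 56.7 and 36.8 FPKM in the primary trio and 36.0, 0.482 and 6.78 FPKM in the adapted lines, 118-fold lower in E13.17 and 5.43-fold lower in E14.2. Nuf2 was at 16.8, 13.1 and 13.1 FPKM and then 29.6, 2.03 and 4.24 FPKM, 6.45-fold and 3.09-fold lower. In E13.15, Cenpa was lower and Nuf2 higher than in the primary cells.

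Kinesins, cytokinesis and chromosome structure genes followed. Kif11 was at 12.1, 8.85 and 9.43 FPKM and then 20.9, 0.597 and 1.94 FPKM, 14.8-fold and 4.87-fold lower. Prc1 was at 46.8, 35.1 and 44.3 FPKM and then 50.1, 3.06 and 8.59 FPKM. Both were higher in adapted E13.15 than in its primary cells. Racgap1 was at 32.0, 27.7 and 22.1 FPKM and then 39.9, 4.81 and 9.93 FPKM. Ect2 was at 13.1, 7.71 and 15.5 FPKM and then 15.2, 1.61 and 3.37 FPKM. These 2 genes were 2.23-fold to 5.75-fold lower in the low lines. Top2a was at 53.0, 42.0 and 38.5 FPKM and then 77.8, 2.45 and 9.14 FPKM, 17.2-fold and 4.22-fold lower. Ncapg was at 7.94, 8.17 and 7.71 FPKM and then 16.4, 0.694 and 3.05 FPKM. Smc4, also a condensin gene, was at 35.0, 28.7 and 33.9 FPKM and then 54.0, 12.7 and 16.3 FPKM, 2.26-fold and 2.07-fold lower, so condensin subunits differed in how low they were.

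Anaphase genes differed widely from each other. Cdc20 was at 53.5, 65.0 and 39.2 FPKM in the primary trio and 18.9, 2.23 and 3.24 FPKM in the adapted lines, lower in all 3, by 2.83-fold, 29.1-fold and 12.1-fold. Ube2c was at 106, 113 and 73.4 FPKM and then 76.5, 3.01 and 12.3 FPKM. Espl1 was at 4.4, 4.39 and 4.09 FPKM and then 4.24, 0.128 and 0.404 FPKM, 34.2-fold and 10.1-fold lower in E13.17 and E14.2. Espl1, Aurkb, Cdc20 and Kif23 were the 4 members over 8-fold lower in E14.2, against 4.2% of all units. By contrast Pttg1, the securin that restrains separase, was at 21.5, 27.7 and 16.7 FPKM in the primary trio and 23.9, 30.5 and 47.0 FPKM in the adapted lines. Pttg1 was the only member with its highest level of the 15 samples in E14.2.

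Mybl2 was the other member whose main unit was not low, at 30.2, 23.5 and 27.5 FPKM in the primary trio and 24.3, 17.8 and 18.8 FPKM in the adapted lines. Its unit also carries Ift52, so its level may hold reads of another gene. Foxm1, in a unit shared with Nrip2 among others, was at 11.5, 11 and 11 FPKM and then 13.8, 3.6 and 3.86 FPKM, 3.05-fold and 2.84-fold lower. Of the 2 factors, Foxm1 was thus low in both lines and the main unit of Mybl2 in neither by 2-fold. The second units of Mybl2, which do not carry Ift52, were lower in both lines. In E13.17 they went from 0.976 and 0.667 FPKM to 0.0922 and 0 FPKM. In E14.2 they went from 0.921 and 0.813 FPKM to 0.0968 and 0.134 FPKM. All these levels are under 1 FPKM, so whether Mybl2 itself was low is not known.

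Tested as a group of 3 against 3, adaptation of CIZ1 null cells gave 0 of 48 members called by limma, with 8 at an unadjusted p under 0.05 beside 29.3% of all units in either direction, where 1.4% of all units were called higher and 3.47% lower. The median log2 change was -1.24, beside -0.04 over all units, and the lowest adjusted p was that of Cdc20 (-3.02 ± 0.677, limma adjusted p = 0.0562). Aurka, Cdc20, Cenpa and Plk1 had groups that did not overlap, 4 of 48 members against 19.6% of all units. The spread between the 3 adapted lines was wide for these genes: the median SD of log2(FPKM + 1) over members was 1.65, against 0.357 over all units, and 3.43% of units exceeded it. In adapted WT the members' median SD was 0.281, against 0.36 over all units.

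E13.15 decided that count. Without adapted E13.15, 43 members were called lower by limma and the median change was -2.07. For this and the other fits of this paragraph, the share of all units called was not counted. Without E13.17 or without E14.2, 0 were called and the medians were -0.64 and -1.04. With both of these left out, an alternative chosen after seeing the data, E13.15 alone against the primary trio gave a median of 0.34 and 0 calls, and the lone sample is then assumed to vary like the primary ones. All 4 groups in a single fit gave 5 members called lower: Aurka, Ccnb2, Cdc20, Plk1 and Ube2c.

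**Figure D4:**
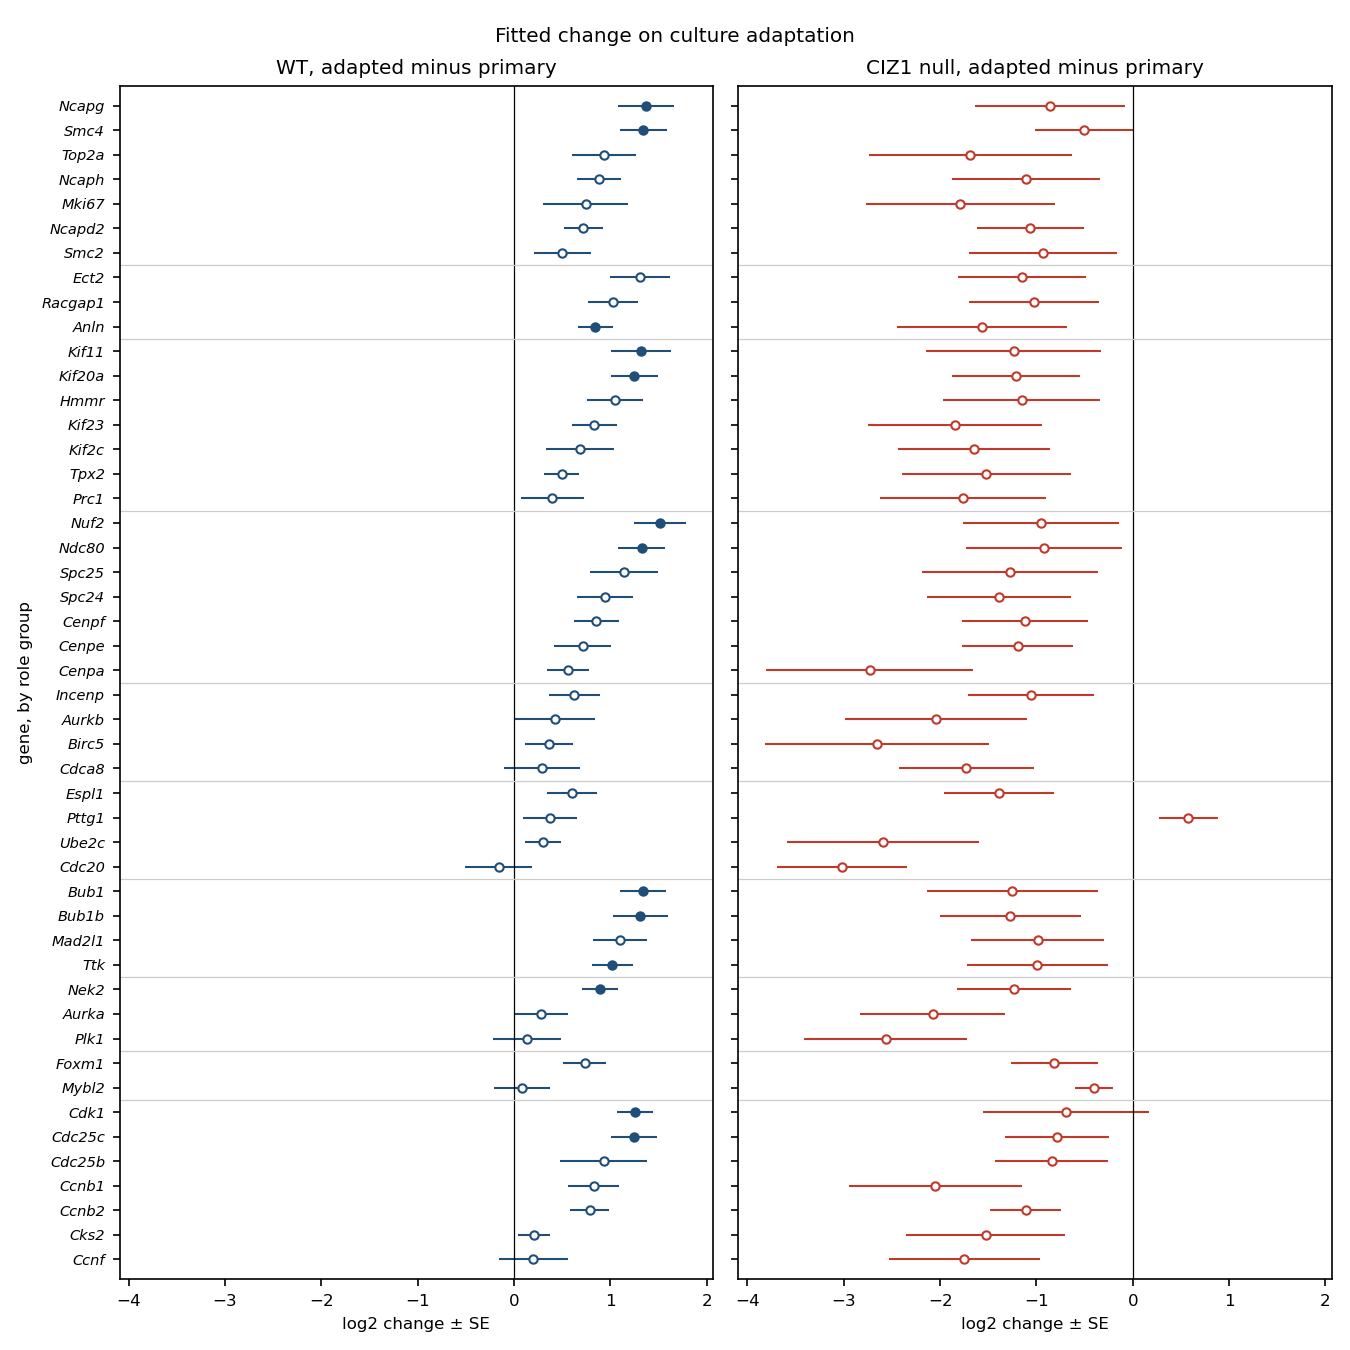
Log2 change on adaptation (x axis) of each member (rows) in WT and in CIZ1 null cells, with bars for the standard error of the fit and filled marks for adjusted p of at most 0.05. In WT 13 members are called, all higher, and the bars are short, while in CIZ1 null cells none is called and bars are long (median standard errors 0.27 and 0.766).

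Adapted CIZ1 null and adapted WT lines, 3 each, were compared for loss of CIZ1 after adaptation. No member was called by limma (adjusted p = 0.998 for each of the 48), while 34 had an unadjusted p under 0.05, all lower, beside 4.02% of all units in either direction, and the median change was -2.11, beside 0.03 over all units. Among all 19976 units, 0% were called higher and 0.00501% lower, which is 1 unit. The groups did not overlap for 25 members, all lower in CIZ1 null, against 3.74% of all units. For the other 23 members E13.15 lay within the adapted WT range. It lay below that range for 25 members and above it for 0. It was the highest of the 3 CIZ1 null lines for 47 members, all but Pttg1.

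The distance from the adapted WT mean separated the 3 lines. The median fold below that mean was 1.27 in E13.15, 24.9 in E13.17 and 7.52 in E14.2, with 39 members over 10-fold lower in E13.17 and 11 in E14.2. Each line is 1 library here, and the share of all units over 10-fold below the adapted WT mean was not counted. Cenpa in E13.17 was 166-fold below its adapted WT mean of 80.1 ± 17.9 FPKM (SD, n = 3). Bub1 was 82.8-fold, Mki67 72.0-fold and Birc5 69.4-fold below theirs. Without E13.15 the group comparison gave a median of -3.03 and 0 calls, with a lowest limma adjusted p of 0.0699, and without both E13.17 and E14.2 the median was -0.31.

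Whether adaptation changed the members differently in the 2 genotypes was tested with an interaction term over 12 samples. By limma 0 of 48 members were called (35 at an unadjusted p under 0.05, all with a lower change in CIZ1 null, beside 4.63% of all units in either direction), as were 0% of all units in either direction, and the median difference in log2 change was -2.18. Cenpa had the most negative estimate, -3.29 ± 1.2. Without adapted CIZ1 null E13.15, 41 members were called, all lower, and the share of all units called in that fit was not counted. Without both E13.17 and E14.2, 0 were called and the median was -0.44. The difference between genotypes was thus not shown across lines.

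Loss of CIZ1 in primary cells was compared in the primary trio against primary WT. Among the members 0 were called by limma, with 0% of all units called higher and 0.00511% lower. An unadjusted limma p under 0.05 was found for 0 members, against 6.26% of all units in either direction. The median change was 0.14, beside a median of 0.00 over all units to 2 decimals, and member changes ranged from -0.31 (Smc2) to 0.34 (Aurkb). Ncaph was the only member whose groups did not overlap, at 13.9, 13.4 and 12.6 FPKM in CIZ1 null and 7.84, 12.5 and 12.3 FPKM in WT. Of all units, 6.13% lay wholly higher and 5.72% wholly lower in CIZ1 null. The median was -0.11 without primary WT E14.4. Differences of this size were within the spread of the primary populations, whose median SD of log2(FPKM + 1) over members was 0.392 in WT and 0.23 in the CIZ1 null trio.

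Doxycycline, which switches the CIZ1 transgene on, was compared in S14 and S15 against untreated E13.17 and S13. The study gives the treated and untreated cells as the same pair of embryos' populations, but the labels do not say which treated sample belongs to which embryo, so the comparison took no account of embryo. By limma 0 members were called, where 0.0101% of all units were called higher and 0% lower. An unadjusted limma p under 0.05 was found for 0 members, against 1.76% of all units in either direction. The median change was 0.34, beside -0.01 over all units. The groups overlapped for every member, whereas 8.92% of all units lay wholly higher and 10.8% wholly lower with doxycycline. Cdk1 was at 108 FPKM in untreated E13.17 and 59.8 FPKM in S13, and at 92.1 FPKM in S14 and 168 FPKM in S15. Cenpa, with the largest change (0.80 ± 0.501), was at 56.7 and 20.5 FPKM untreated and 55.4 and 65.6 FPKM treated. Samples also differed within each group: S15 was above S14 for 45 members, untreated E13.17 was above S13 for 46, and S14 was below E13.17 for all 48. Summed erythroid markers were 37.0 FPKM in untreated E13.17 and 35.2 FPKM in S14, but 5.47 FPKM in S13 and 3.96 FPKM in S15. Were these the pairs, the members' summed level would go from 1244 to 939 FPKM in E13.17. In the other embryo it would go from 628 to 1431 FPKM. The median change of 0.34 would then mix opposite directions. No label gives this pairing, and it was not tested. S13 was the lowest of the 7 untreated primary samples for 31 members, with a summed level of 628 FPKM, and it had the lowest relative depth, 0.48. The part of depth in this was not tested. The median change was 0.70 without untreated E13.17, -0.02 without S13, 0.05 without S15 and 0.68 without S14.

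Second units of 29 members, which have the same coordinates as the main unit, were read beside it. Reads of a gene could be split between such units, so a level in 1 unit is not the full level of its gene. In adapted WT, 27 second units could be tested, of which 5 rose and 0 fell, with a median change of 0.66. In E13.17, 32 of the 33 second units were over 2-fold lower than in the primary cells, and in E14.2, 27 of 33. The main unit of 6 members is shared with other symbols. Of these, Ccnb2 (with Rnf111), Mybl2, Foxm1 and Ncapd2 were less low in E13.17 and E14.2 than the members' medians of 12.8-fold and 3.21-fold. Ccnf, at 55.8-fold and 3.84-fold lower, and Top2a, at 17.2-fold and 4.22-fold lower, were past those medians. The part of the neighbours' reads in this was not tested.

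Other cell cycle lists were read beside the members. Of 83 other mitotic genes tested, 19 rose and 1 fell in adapted WT by limma, and 0 were called in adapted CIZ1 null. The gene that fell was Ube2s, the ubiquitin chain-elongating enzyme of the anaphase-promoting complex, at 212, 163 and 212 FPKM in primary and 86.0, 112 and 107 FPKM in adapted WT (-0.94 ± 0.186, limma adjusted p = 0.0331). In E13.17, 61 of 80 other mitotic genes were over 2-fold lower than in primary cells, and in E14.2, 55 of 83. Most of them were thus low in the lines where the members were low.

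Genes of DNA replication, which act in S phase, were called in 3 of 33 cases in adapted WT: Pcna, Pole and Prim1. Prim1, a primase subunit, was at 9.92, 16.5 and 13.1 FPKM and then 38.2, 30.0 and 29.6 FPKM (1.26 ± 0.227, limma adjusted p = 0.027). Replication genes were over 2-fold lower in 29 of 33 cases in E13.17 and 24 of 33 in E14.2, with median ratios of 0.209 and 0.364. Those ratios were closer to 1 than the members' 0.0779 and 0.312, a difference that was not tested.

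Structural subunits of the anaphase-promoting complex and cohesin were mostly not low in E13.17 and E14.2. Of 15 subunits of that complex, 0 were called in WT and 1, Anapc10, rose in CIZ1 null (1.17 ± 0.224, limma adjusted p = 0.0429), and 3 and 1 were over 2-fold lower in E13.17 and E14.2. Of 12 cohesin genes, which hold sister chromatids together, 5 rose in adapted WT, among them Rad21 (1.16 ± 0.14, limma adjusted p = 0.0132) and Smc3 (0.94 ± 0.156, limma adjusted p = 0.0225). Nipbl, the cohesin loader, rose in both genotypes, by 0.81 ± 0.191 in WT and 0.82 ± 0.167 in CIZ1 null (limma adjusted p = 0.0491 and 0.0474). In E13.17 and E14.2, 0 of the 12 cohesin genes were over 2-fold lower.

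Regulators of the members' promoters, 21 DREAM, MuvB and E2F genes, gave 2 calls in adapted WT, Rbl1 and Mybl1, both higher. Mybl1, the A-MYB relative of Mybl2, was at 3.67, 3.04 and 3.47 FPKM in primary WT and 6.27, 5.64 and 6.38 FPKM in adapted WT (0.69 ± 0.162, limma adjusted p = 0.0476). It was at 5.38, 9.02 and 10.3 FPKM in adapted CIZ1 null, higher in E13.17 and E14.2 than in E13.15. Rbl1, the p107 pocket protein of DREAM, was at 3.10 to 4.58 FPKM in primary WT. It was at 10.6, 1.47 and 3.09 FPKM in adapted CIZ1 null, which differs from primary WT in both genotype and culture state. In each of E13.17 and E14.2, 4 of 21 regulators were over 2-fold lower, against 19.9% and 18.8% of all units. Over 2-fold higher were 4 in E13.17 and 2 in E14.2, against 16.7% and 15.7% of all units. The regulators' median ratios of adapted to primary were 1.01 and 0.897.

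CDK inhibitors and checkpoint brakes, 12 genes, gave 1 call in each genotype, both lower. Cdkn1c, which codes for p57, fell in adapted WT from 26.6, 26.9 and 18.9 FPKM to 0, 0.259 and 2.95 FPKM (-3.86 ± 0.517, limma adjusted p = 0.015). It was at 7.72, 27.3 and 0.451 FPKM in adapted CIZ1 null, highest in E13.17 but lowest in E14.2. Cdkn1a, which codes for the inhibitor p21, fell in adapted CIZ1 null from 262, 245 and 225 FPKM to 138, 90.1 and 107 FPKM (-1.14 ± 0.208, limma adjusted p = 0.0377). It was lower in adapted E13.17 and E14.2 than in adapted E13.15 and in the primary cells. The part of Cdkn1a in the members' levels was not tested. In the other 4 comparisons 0 genes of these 6 lists were called.

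**Figure D5:**
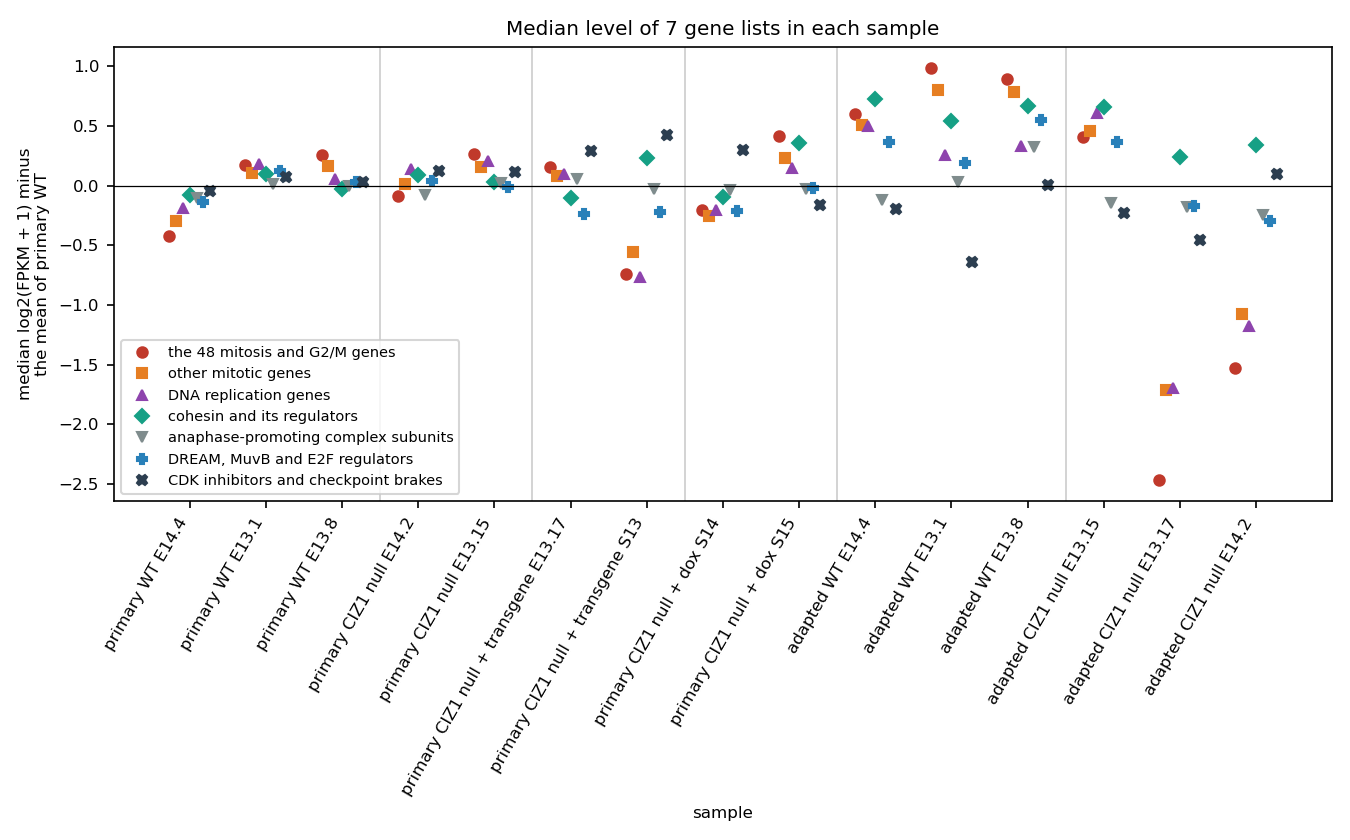
Median difference in log2(FPKM + 1) from primary WT (y axis) of the members and the other gene lists in each of the 15 samples. In adapted CIZ1 null E13.17 and E14.2 the medians are -2.47 and -1.53 for the members, -1.71 and -1.07 for other mitotic genes, -1.70 and -1.18 for replication genes, and 0.24 and 0.34 for cohesin genes.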

How the data were processed

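Poly(A) RNA of 15 mouse embryonic fibroblast populations was sequenced, and 1 table of FPKM and 1 table of comparisons were deposited. The authors trimmed reads with cutadapt 1.8.3, aligned them to GRCm38 with HISAT2 2.0.5, built a merged transcript set with Cufflinks and computed FPKM, normalised between samples by Cuffnorm, for each of its units. The deposited table of comparisons from Cuffdiff 2.2.1 holds group means, log2 fold changes, p-values and q-values and was not used. Because FPKM are not counts, and reads of overlapping units may be split, depth is known only relative to primary WT E14.4, and units that share reads are uncertain.

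Groups came from the sample labels. The embryo of 12 populations came from the study's tables per line, whose values were identical to those deposited. One sample, taken as E13.17, has a source name that reads S13. Embryos of S13, S14 and S15 were not used. No pair of samples had identical values, so each counts as 1 replicate, and replicates are separate embryos' cells.

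Values were tested as log2(FPKM + 1) with limma 3.58.1 (R 4.3.3, trend), over units with a mean of at least 1 FPKM in the samples compared, with Benjamini-Hochberg adjustment over all of them and a threshold of 0.05. A fold on this scale understates the change of low genes. Summaries used Python 3.11.15, pandas 2.3.3 and NumPy 2.4.6, and figures Matplotlib 3.10.9. Adapted and primary cells of 1 embryo are paired by origin (correlation of their deviations from group means 0.21, 0.146 and -0.00985 for WT and 0.11, 0.0893 and -0.0193 for CIZ1 null), so fits with the embryo as a block were run. Other alternatives were a pseudocount of 0.1, other filters, quantile normalization, a single fit, changes to which primary CIZ1 null samples entered, and leaving out each sample.

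The members, their roles and the other lists were chosen with earlier results of these data known. Named genes were the member of each role with the highest mean and the one with the largest WT change, every member called, and up to 3 called genes of each other list per direction and comparison, while genes named for an extreme or an exception were chosen after their values were seen. RefSeq promoters of GRCm38.p6 were matched by symbol. Aurkb, Cdc25c, Foxm1, Incenp, Kif20a, Smc4, Spc24 and Tpx2 had no entry.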

Additional observations from a re-analysis of the deposited data

Results flagged for a closer look

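For 10 of the 48 members, all 3 WT lines were higher after adaptation and all 3 CIZ1 null lines were lower than the primary cells of the same embryo. These members were picked by that pattern, and the share of all units with it was not counted. In E13.15, with 1 library a side, the ratio of adapted to primary ranged from 0.462 (Cenpf) to 0.998 (Kif20a), and it was also near 1 for Espl1 (0.965) and Nek2 (0.939). The difference between genotypes, as the log2 change in CIZ1 null minus that in WT, was -2.88 for Ccnb1, -1.9 for Ccnb2, -2.02 for Cdca8, -3.29 for Cenpa and -1.98 for Cenpf. It was -1.99 for Espl1, -2.46 for Kif20a, -2.13 for Nek2, -2.7 for Plk1 and -2.9 for Ube2c. The interaction term of limma did not pass for any of them (adjusted p = 0.996 each), and E13.15 was much less low than E13.17 and E14.2. No group held 4 or more samples, so no single sample was tested as an outlier.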

How the results depend on the processing

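For WT adaptation, 13 members were called, all higher, and all counts below for this comparison are of higher members. The count was 12 with a pseudocount of 0.1, 17 with a mean of at least 5 FPKM, 5 with no filter, 20 after quantile normalization, 0 with all 4 groups in a single fit and 0 to 17 when 1 sample was left out. A fit with embryo as block gave 6, and it left the counts for CIZ1 null adaptation and the interaction, where it was also run, at 0. On doxycycline no fit paired by embryo was made, since the labels do not give each treated sample's embryo.

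For CIZ1 null adaptation, 0 were called, but 1 (Cdc20, lower) with a mean of at least 5 FPKM, 5 lower in a single fit and 0 to 43 with 1 sample left out. Its median log2 change of -1.24 ranged from -2.07 to -0.64 with 1 sample left out and was 0.34 without both E13.17 and E14.2, an alternative chosen after seeing the data, as below. The median on loss of CIZ1 in primary cells, 0.14, ranged from -0.11 to 0.28. In adapted cells it was -2.11, ranged from -3.03 to -1.44 and was -0.31 without both lines. For the interaction, counts of 0 to 41 and medians of -3.14 to -1.54 were found with 1 sample left out, and a median of -0.44 without both lines. Counts on loss of CIZ1 and on doxycycline were 0 under every alternative run. The counts above 0 in CIZ1 null cells and in the interaction with 1 sample left out came from leaving out E13.15. Shares of all units called were taken for the main fits only. Other causes were not tested. Depth limits low members: Cdc25c, listed at 0 in E13.17, may be below detection or a failed estimate.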
